A study of Mus musculus with 6 samples.

Results

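The Hox gene clusters were described here by their open chromatin. Hox genes encode homeodomain transcription factors that give cells their position along the head-to-tail axis and along the limb, and they lie in 4 clusters, HoxA to HoxD, ordered from anterior (low numbers) to posterior (high numbers). Genes with the same number in different clusters are paralogs. Polycomb proteins keep Hox genes silent, Trithorax proteins keep them active, and skeletal cells of the adult retain a pattern of Hox expression set in the embryo. Peaks were taken where the summit lay between the first and the last member of a cluster or within 50 kb on either side, and each went to the nearest Hox gene. In all, 38 genes were members, of 21631 protein-coding genes. Peaks nearest to a Hox gene outside these 38 were not used here. The members held 90 to 130 of 65462 peaks per library, which merged into 124 of 78613 regions.

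ATAC-seq, in which a transposase cuts accessible DNA, was run on mesenchymal stem and progenitor cells (MSPCs) sorted for tdTomato from bone marrow of Lepr-Cre;LSL-tdTomato+/- mice. All animals were female and carried the Cre driven from Lepr, the leptin receptor gene, which marks perivascular stromal cells, so that only cells with a history of Lepr expression were sampled in either group. Mice aged 8 to 10 weeks received 4 intravenous injections 1 week apart of either PBS (3 libraries) or doxorubicin at 5 mg/kg (DOX, 3 libraries), and marrow was taken 8 weeks after treatment. The comparison asks which open regions still differed at that time. The labels do not say how many mice went into a library, and p-values measure only the spread between these libraries. In a bulk library, fewer cells with an open site and less opening per cell cannot be told apart.

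The libraries differed in depth in the same direction as treatment. Mean background was 0.558 to 1.27 fragments per position in PBS and 1.67 to 2.22 in DOX. The lists were therefore cut to the 65462 strongest peaks of each library. PBS replicate 3 stood apart as the shallowest, with the narrowest peaks (median 328 bp, against 439 to 542 bp in the others), and it alone listed 22 of the 26 Hox regions found in 1 library. All 10 MSPC markers, Lepr and Cxcl12 among them, had an open start in every library. Of the markers of other cells, 1 of 7 for B cells, 0 to 1 of 7 for myeloid cells, 2 to 3 of 5 for erythroid cells, 1 of 4 for T cells, 1 of 5 for endothelium and 3 of 5 for blood stem cells had one. Ptprc (CD45), Pecam1, Cdh5, Cd79a, Cd3e and Mpo had none in any library.

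Promoter sequences are shown for members at both ends of the range of openness, and for Hoxb4, whose start region had one of the largest differences between the groups. Each is the 250 bases before the start on the gene's strand, from RefSeq (GRCm38.p6), with CG dinucleotides, the sites of CpG methylation, in capitals. Hoxa3 (chr6:52213068-52213317, minus strand) and Hoxa7 (chr6:52218574-52218823, minus strand) were among the most open. Hoxb4 lies at chr11:96318017-96318266 on the plus strand. Hoxd12 (chr2:74674763-74675012, plus strand) and Hoxd13 (chr2:74667975-74668224, plus strand) had no peak at their starts in any equal-length list. In the full deposited lists Hoxd13 had one in some libraries. A start here means 1 kb on either side, and within 2.5 kb Hoxd12 had a peak in all 6 libraries.
Hoxa3: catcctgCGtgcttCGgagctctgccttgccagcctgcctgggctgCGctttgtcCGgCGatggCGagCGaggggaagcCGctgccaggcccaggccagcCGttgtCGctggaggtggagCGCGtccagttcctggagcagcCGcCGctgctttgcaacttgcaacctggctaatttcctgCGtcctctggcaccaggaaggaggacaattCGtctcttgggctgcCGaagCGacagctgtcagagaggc
Hoxa7: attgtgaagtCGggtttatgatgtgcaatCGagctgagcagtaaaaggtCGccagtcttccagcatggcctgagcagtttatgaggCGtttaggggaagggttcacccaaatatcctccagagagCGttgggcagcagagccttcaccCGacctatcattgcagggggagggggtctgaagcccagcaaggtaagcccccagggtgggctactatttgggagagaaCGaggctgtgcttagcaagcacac
Hoxb4: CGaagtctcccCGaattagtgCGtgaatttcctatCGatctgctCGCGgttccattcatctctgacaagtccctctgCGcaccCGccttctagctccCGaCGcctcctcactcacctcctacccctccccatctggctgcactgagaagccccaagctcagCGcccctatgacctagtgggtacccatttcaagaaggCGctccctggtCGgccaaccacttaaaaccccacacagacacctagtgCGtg
Hoxd12: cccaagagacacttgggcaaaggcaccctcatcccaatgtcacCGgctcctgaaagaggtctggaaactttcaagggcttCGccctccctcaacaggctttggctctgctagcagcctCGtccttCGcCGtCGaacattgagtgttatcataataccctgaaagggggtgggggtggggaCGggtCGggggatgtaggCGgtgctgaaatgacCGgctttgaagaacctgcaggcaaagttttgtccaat
Hoxd13: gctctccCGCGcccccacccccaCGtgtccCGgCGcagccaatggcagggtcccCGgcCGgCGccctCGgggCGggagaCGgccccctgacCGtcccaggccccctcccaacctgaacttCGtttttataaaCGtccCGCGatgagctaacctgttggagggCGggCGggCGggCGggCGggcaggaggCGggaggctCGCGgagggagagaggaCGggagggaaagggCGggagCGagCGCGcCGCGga
The number of CG dinucleotides did not order these promoters by openness. Hoxa7 had 7 and was open in every library, whereas Hoxd13 had 31 and was not open in any of the equal-length lists. Entries were found for 22 of 38 members (24 windows, since Hoxa10 and Hoxd11 have 2 each). The Hox windows had a median of 12.5 CG against 10 in all 21045 windows of protein-coding genes. Of the members with an entry, the windows of 15 that were open in all 6 libraries had a median of 13 CG (3 to 35), and those of 5 that were open in none had 8.5 (2 to 31).

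Motifs were searched on both strands of the same windows as a description. TGATTNAT, a sequence bound by PBX and HOX proteins together, was present in the windows of Hoxa2 and Hoxd11 (8.33% of Hox windows, 2.54% of all). TATAAA was present in those of Hoxa10, Hoxb8, Hoxd4 and Hoxd13 (16.7%, against 11.7% of all). Neither motif contains the other.

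The clusters also hold microRNAs, short RNAs that repress transcripts matching their seed, bases 2 to 8. Mature sequences from RefSeq are shown with the seed in capitals, because the miRNAs fall into families spread over the clusters as the Hox paralogs are.
mmu-miR-10a-5p (HoxB): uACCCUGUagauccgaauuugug
mmu-miR-10b-5p (HoxD): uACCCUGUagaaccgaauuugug
mmu-miR-196a-5p (HoxB and HoxC): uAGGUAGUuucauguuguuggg
mmu-miR-196b-5p (HoxA): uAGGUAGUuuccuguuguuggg
mmu-miR-615-3p (HoxC): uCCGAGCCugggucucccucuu
The pair of miR-10 sequences shares one seed and differs by U12A, and the miR-196 pair shares another and differs by A12C, counted from the 5′ end. The Mir615 sequences, inside the span of Hoxc5, lay under a peak in 6 of 6 libraries. Mir196b (chr6:52230081-52230165) lay under a peak in DOX replicates 1 and 2 alone. The nearest summit was within 331 to 576 bp of it in all 6 libraries, so that a peak edge set this count. Mir10a, Mir10b, Mir196a-1 and Mir196a-2 lay under no peak of any library in the equal-length lists, and no peak in these lists means below the threshold, not closed.

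HoxA and HoxC were the widely open clusters and HoxB and HoxD the sparsely open ones. Peaks covered 27.4%, 31.7% and 23.6% of the HoxA span (chr6:52162417-52260880) in PBS replicates 1, 2 and 3, and 34.7%, 31.9% and 32.9% in DOX. They covered 20.1%, 20.7% and 18.1% of HoxC (chr15:102921131-103036856) in PBS and 23.4%, 24.3% and 23.0% in DOX. HoxB (chr11:96194316-96368254) had 3.50% to 6.64% covered and HoxD (chr2:74668225-74765142) 4.22% to 7.01%. The lowest HoxC library thus stood above the highest HoxD library, and each cluster stood above the share over all protein-coding gene spans of its library, which was 1.73% to 2.67%. The HoxB span is 174 kb, against 98.5 kb for HoxA, and includes the long gap between Hoxb13 and Hoxb9 (chr11:96196610-96271330). These shares were not adjusted for gene density.

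**Figure D1:**
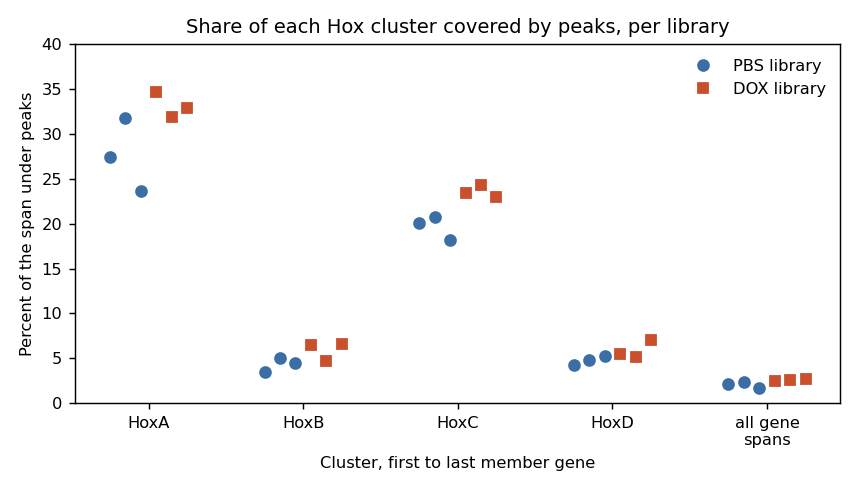
Percent of each Hox cluster, from its first to its last member, under peaks of the equal-length lists (y axis) in 3 PBS libraries (circles) and 3 DOX libraries (squares), beside the same share over all protein-coding gene spans. HoxA and HoxC lay at 18.1% or above in every library, and HoxB and HoxD at 7.01% or below.

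The HoxA members were open at their starts throughout the cluster. A start counted as open where a peak overlapped 1 kb on either side of it. For the 16 members with no start given, either gene end was used. All 10 HoxA members were open in all 6 libraries, from Hoxa2, which patterns the hindbrain and branchial arches, to Hoxa13, which patterns the digits. The strength of a peak is given as its percentile in its library, where 100 is the strongest. Hoxa3, which acts in the thymus, parathyroid and neck skeleton, stood at 93.2, 94.4 and 93.8 in PBS and 95.8, 91.8 and 93.2 in DOX. Hoxa7 stood at 88.3 to 91.0 and Hoxa9, a regulator of blood progenitors and posterior identity, at 85.5 to 87.9. Hoxa10, which patterns the upper segment of the limb and the lumbar spine, stood at 83.4 to 86.7. Hoxa11, which patterns the lower segment of the limb, was lower at 48.3 to 58.9. Hoxa2, Hoxa5 and Hoxa13 ranged between 43.5 and 64.4, and Hoxa4 and Hoxa6 between 68.6 and 77.1. The Hoxa2 values came from a region upstream of its start (chr6:52165571-52166465). The weaker region over the Hoxa2 start itself (chr6:52164125-52165388) stood at 11.98 to 37.8. The annotated Hoxa3 start lies between the Hoxa6 and Hoxa7 genes, so that the 4 strongest HoxA starts, those of Hoxa3, Hoxa7, Hoxa9 and Hoxa10, adjoin each other.

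In HoxC, 8 of 9 members were open in every library. Hoxc6, which acts in the thoracic region, had the strongest start of all 38 members. It stood at 95.5, 96.6 and 96.0 in PBS and 96.7, 95.5 and 94.9 in DOX. Hoxc10, a gene of lumbar and hindlimb identity, stood at 86.1 to 89.1 and Hoxc9, a thoracic gene, at 77.0 to 83.6. Hoxc5, Hoxc11 and Hoxc13, the last of which acts in hair and nail, ranged from 44.5 to 68.5. Hoxc4 (45.3 to 50.4) and Hoxc8 (24.3 to 52.3) were weaker. Hoxc12 had a peak near a gene end in the 3 DOX libraries, at 7.49, 8.31 and 6.28, and in no PBS library. With the start placed by the strand of the cluster, this remained in 1 DOX library.

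HoxB and HoxD were open at some members only. In HoxB, Hoxb2, Hoxb4, Hoxb5 and Hoxb7 were open in every library and Hoxb6 in 4 of 6, at percentiles from 11.3 to 63.8. Hoxb8 was open in PBS replicate 3 alone, at 6.81. The peak behind the Hoxb7 percentiles lay within Hoxb8 (chr11:96284050-96284850), more than 1 kb from the Hoxb8 start. Hoxb7 itself had an assigned peak in PBS replicate 3 alone. Hoxb1, a hindbrain gene, Hoxb3, Hoxb9 and Hoxb13, the most posterior member of HoxB, had no open start in any library. In HoxD, Hoxd3, Hoxd8, Hoxd9 and Hoxd10 were open in every library, and Hoxd8 was the strongest at 45.7 to 65.3. Hoxd1 was open in PBS replicate 2, at 15.6, and in the 3 DOX libraries, at 21.5, 14.3 and 21.9. Hoxd4, Hoxd11, Hoxd12 and Hoxd13 had no open start in any library. Hoxd11 to Hoxd13 are the posterior HoxD genes that pattern the lower segment of the limb and the digits. Their HoxA paralogs Hoxa11 and Hoxa13 were open in all 6 libraries. Hoxd12 (chr2:74675013-74677705) was the one member with no peak assigned in any library, and Hoxd11 had 1, in DOX replicate 3, at percentile 0.838. Between Hoxd13 and Hoxd12, a region listed in all 6 libraries (chr2:74672834-74673284, percentiles 34.4 to 55.2) was assigned to Hoxd13.

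Counted over all members, starts were open in 26, 28 and 28 of 38 genes in PBS and in 29, 28 and 29 in DOX. The groups overlapped. In all 6 libraries 26 members were open, against 57.8% of all protein-coding genes, and 8 were open in none, against 38% of all genes. With the full deposited lists 4 members were open in none, Hoxb3, Hoxb13, Hoxd4 and Hoxd12. Within 2.5 kb of the start 5 were, Hoxb1, Hoxb13, Hoxd4, Hoxd11 and Hoxd13. At that distance Hoxb3, Hoxb9 and Hoxd12 had a peak in all 6 libraries. Long members enclose others: Hoxa3 encloses Hoxa4 to Hoxa6, Hoxb3 encloses Hoxb4, and Hoxd3 encloses Hoxd4. Peaks there can serve either gene, and Hoxa4 shows it, with 53.4% to 77.6% of its length under peaks but 0 or 1 peak assigned.

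**Figure D2:**
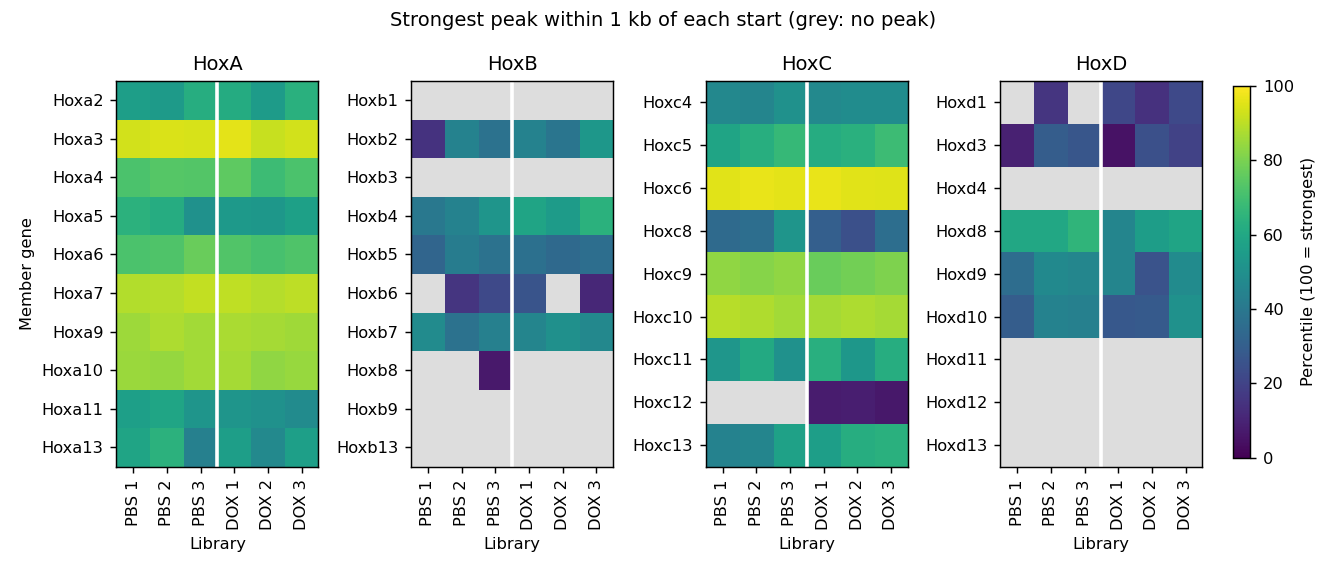
Percentile rank (colour, 100 is the strongest peak of a library) of the strongest peak within 1 kb of the start of each of 38 members (rows) in each library (columns, PBS left and DOX right of the white line). Grey marks no peak in the equal-length list. All HoxA rows are coloured in all columns, while 4 HoxB and 4 HoxD members are grey throughout.

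In the equal-length lists, peak numbers per cluster did not separate the treatments. HoxA peaks numbered 33, 36 and 41 in PBS, against 33, 30 and 34 in DOX. In HoxB there were 19, 21 and 31 against 24, 20 and 23. In HoxC there were 28, 30 and 41 against 30, 32 and 29, and in HoxD 10, 12 and 17 against 11, 11 and 14. PBS replicate 3 was the highest in every cluster and the groups overlapped in every cluster. Over all clusters the mean was 106 ± 21.0 (SD, n = 3) in PBS and 97 ± 3.61 (n = 3) in DOX (two-sided exact permutation test, p = 0.8, where 3 against 3 libraries cannot give a p below 0.1). Without PBS replicate 3 the sign turned, to 2.5 peaks more in DOX. The groups did not overlap for HoxA among peaks at least 20 times the background (27 ± 1 in PBS, 24 ± 0 in DOX) and for HoxB in the full deposited lists (29.7 ± 3.21 and 34.7 ± 1.53; SD, n = 3 each, exact permutation p = 0.1 for both).

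The length under Hox peaks was greater in DOX, as was the length under all peaks. Over the 4 clusters peaks covered 69.3, 79.7 and 64.5 kb in PBS and 90.1, 83.6 and 88.7 kb in DOX. The groups did not overlap, with means of 71.2 ± 7.75 kb (SD, n = 3) and 87.5 ± 3.46 kb (n = 3; exact permutation, p = 0.1). HoxB, with 10.6 ± 1.24 against 14.5 ± 1.96 kb, and HoxC, with 25.5 ± 2.01 against 30.8 ± 0.721 kb (SD, n = 3 each, exact permutation p = 0.1 for both), did not overlap either. HoxA had 29.0 ± 5.28 and 34.8 ± 2.16 kb (exact p = 0.3, n = 3 each) and HoxD 5.97 ± 0.686 and 7.29 ± 1.28 kb (exact p = 0.2, n = 3 each). The whole lists covered 30.0 to 41.0 Mb in PBS and 43.5 to 46.6 Mb in DOX, in libraries that were deeper. As a share of that length the 4 clusters took 0.198 ± 0.0162% in PBS, against 0.195 ± 0.0109% in DOX (exact permutation p = 0.7; SD, n = 3 each). The part of depth in the lengths was not tested.

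Among the strong peaks alone, the shares of HoxB and HoxD separated the groups, in opposite directions. Within the strongest 32731 peaks of each library, HoxB peaks covered 3.39 ± 0.245 kb in PBS, against 7.54 ± 0.965 kb in DOX (SD, n = 3), and took 0.0134 ± 0.00302% and 0.0238 ± 0.00253% of the covered length. HoxD peaks took 0.0105 ± 0.00137% in PBS and 0.00762 ± 0.00303% in DOX. The groups did not overlap in these shares (exact permutation p = 0.1 for each), while those of HoxA and HoxC did. In HoxD the covered length itself overlapped, at 2.67 ± 0.073 kb in PBS and 2.43 ± 1.01 kb in DOX (SD, n = 3 each). Few peaks were involved. HoxB had 5.33 ± 1.53 in PBS and 7.67 ± 0.577 in DOX, and HoxD had 4 ± 0 and 3.67 ± 0.577 (SD, n = 3 each). In the equal-length lists of 65462 peaks the HoxB share was 0.0298 ± 0.00563% and 0.0323 ± 0.00453% (exact p = 0.6, n = 3 each), and the groups overlapped.

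Of the 124 Hox regions, 74 had a peak in all 6 libraries (59.7%, against 62.5% of all regions): 25 in HoxA, 16 in HoxB, 25 in HoxC and 8 in HoxD. Inside the spans lay 59 of these and in the flanks 15, and 40 lay within a member gene. Exon, intron and UTR were not told apart. Their median percentile was 57.0, below the 61.6 of all shared regions, and 13 of 74 stood above the 80th percentile (17.6%, against 26.3% of all). HoxA gave 7 of the 13, HoxC 5, HoxB 1 and HoxD 0. The strongest HoxC region lay over Hoxc6 (chr15:102997778-103001623), with a summit 220 to 268 times the background of its library. In HoxA it lay at the start of Hoxa3 (chr6:52211258-52213936), at 190 to 226 times. In HoxB it lay in the flank 45496 bp beyond Hoxb1 (chr11:96413318-96414335), at percentiles from 88.8 to 91.9, although Hoxb1 itself had 0% of its length under peaks in every library. In HoxD it lay within Hoxd3 (chr2:74715754-74716225), at 65.4 to 70.2.

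No shared Hox region passed the test between DOX and PBS. In a limma fit over all 49098 shared regions, 0 of 74 Hox regions were called at an adjusted p of 0.05 (Benjamini-Hochberg), as were 0% of all regions in either direction. At an unadjusted p under 0.05, 6 Hox regions were higher and 3 lower in DOX, where 8.17% and 5.19% of all regions were. The groups did not overlap in 7 regions that were higher in DOX (9.46%, against 10.9% of all) and in 8 that were lower (10.8%, against 7.85%). HoxA gave 0 higher and 4 lower, HoxB 2 and 2, HoxC 5 and 1, and HoxD 0 and 1. The 5 in HoxC lay nearest to Hoxc12, Hoxc10 and Hoxc4. Median differences were -0.19 percentile points in HoxA, 1.68 in HoxB, 1.30 in HoxC and -3.84 in HoxD, beside 0.30 over all shared regions. The median percentile of the 16 shared HoxB regions was 39.9, 41.9 and 47.2 in PBS, against 48.9, 47.2 and 50.0 in DOX, so that PBS replicate 3 and DOX replicate 2 nearly coincided. For the 25 HoxC regions it was 57.1, 56.4 and 58.5, against 58.8, 62.2 and 62.9.

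**Figure D3:**
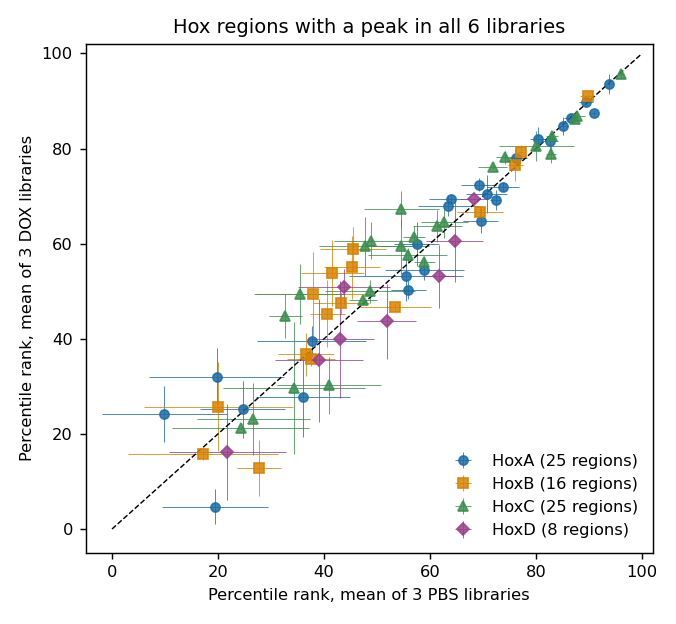
Mean percentile rank in 3 DOX libraries (y axis) against 3 PBS libraries (x axis) of the 74 Hox regions with a peak in all 6 libraries, by cluster. Bars are 1 SD and the dashed line marks equal ranks. The 5 largest differences in each direction lie among regions of middle and low rank, and the Hoxa9 region at 90.9 in PBS and 87.5 in DOX lies below the line.

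The lowest adjusted p belonged to a strong region beside Hoxa9 (chr6:52219746-52223171). It stood at 91.1, 91.2 and 90.3 in PBS and 87.0, 87.8 and 87.7 in DOX. The groups did not overlap, the difference was -3.38 ± 0.856 (SE) percentile points, and the limma adjusted p was 0.15. Its summits were 165 to 189 times the background in PBS and 134 to 158 times in DOX.

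The largest differences in percentile points lay in weaker regions. There, the same change in height, counted in times the background and not as a ratio, moves the percentile further. In PBS replicate 3, heights of 8.97 and 17.9 times the background stood at percentiles 0.529 and 22.2. Heights of 206 and 244 times stood at 93.8 and 96.0. The part of this scale in the differences was not tested. Over Hoxb4 (chr11:96318281-96320327), a gene known for expanding blood stem cells when overexpressed, the region stood at 39.9, 44.3 and 52.3 in PBS and 58.4, 54.7 and 63.8 in DOX, a difference of 13.5 ± 4.64 (SE; limma adjusted p = 0.245). All DOX libraries were above all PBS libraries. This region begins just past the Hoxb4 promoter sequence printed above. Beside Hoxc12 (chr15:102934852-102935351) the values were 58.9, 46.4 and 58.5 in PBS and 65.7, 64.6 and 71.6 in DOX, again without overlap (12.7 ± 3.94, SE; limma adjusted p = 0.211). The other regions with the largest higher means in DOX had overlapping groups. Within Hoxa10 (chr6:52237242-52238448) the percentiles were 5.92, 23.1 and 0.529 in PBS and 19.7, 30.8 and 21.9 in DOX. Within Hoxc13 (chr15:102921928-102922357) they were 44.5, 27.4 and 34.4 in PBS and 53.7, 42.3 and 52.4 in DOX. At the start of Hoxa2 (chr6:52164125-52165388) they were 11.98, 12.8 and 34.4 in PBS and 32.6, 25.8 and 37.8 in DOX, where PBS replicate 3 stood with the DOX libraries.

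In the other direction, the region 9549 bp from Hoxb9 (chr11:96261565-96261886), over the long noncoding RNA gene Gm53, stood at 29.4, 23.1 and 30.7 in PBS and 14.2, 18.0 and 6.28 in DOX. The groups did not overlap (-14.9 ± 6.89, SE; limma adjusted p = 0.373). A second region beside Hoxa9 (chr6:52228455-52229470) stood at 11.98, 15.6 and 30.7 in PBS and 4.96, 8.31 and 0.838 in DOX, without overlap (-14.7 ± 7.56, SE; limma adjusted p = 0.423). The start of Hoxd8 (chr2:74704528-74706125) stood at 60.0, 60.0 and 65.3 in PBS and 45.7, 55.6 and 58.3 in DOX, also without overlap (-8.61 ± 4.09, SE; limma adjusted p = 0.384). The groups overlapped over Hoxc8 (chr15:102990270-102991306; 34.4, 36.3 and 52.3 in PBS, 30.1, 24.3 and 36.3 in DOX). They also overlapped 218 bp from Hoxa2, over Hotairm1 (chr6:52161726-52162356; 37.2, 44.3 and 26.7 in PBS, 27.5, 36.2 and 19.6 in DOX). With the full deposited lists these differences shrank to -1.20 (Hoxb9), -0.83 (Hoxa9), -1.50 (Hoxd8) and -0.99 (Hoxc8, from -10.7), and that of Hoxa2 turned from -8.29 to 3.47. All shared regions had a median difference of 4.50 there.

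**Figure D4:**
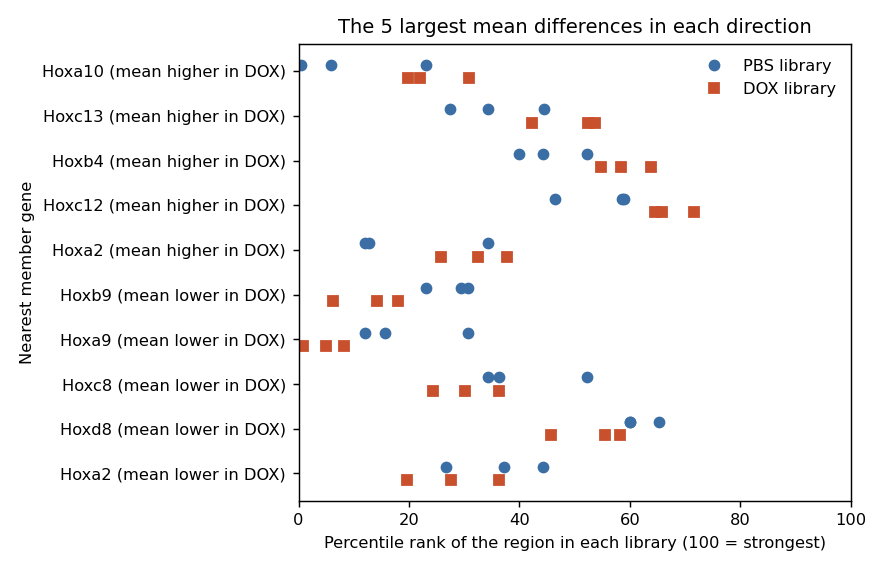
Percentile rank (x axis) in each PBS library (circles) and DOX library (squares) of the 5 shared Hox regions with the largest mean difference in each direction, named by the nearest member. The Hoxb4, Hoxc12, Hoxb9, Hoxa9 and Hoxd8 regions do not overlap between groups, and the other five do.

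Peaks counted per gene gave no call among the members. This fit counted peaks by the nearest protein-coding gene of any kind, which differs from the nearest Hox gene, used in all other counts of peaks per member, for Hoxa13, Hoxb13, Hoxd1 and Hoxd13 alone. In the limma fit of log2(peaks + 0.5) over the 8595 genes that averaged 2 or more peaks, 20 of 38 members were tested, and 0 were higher and 0 lower at an adjusted p of 0.05, where 0.582% of all genes were higher and 0.524% lower. At an unadjusted p under 0.05 there was 1, Hoxd1, whose fitted peaks numbered 1, 2 and 1 in PBS, against 3, 2 and 3 in DOX. Its log2 difference was 0.81 ± 0.29 (SE), and its limma adjusted p was 0.66. Of the 20 members, 6 had higher and 12 lower means in DOX, with a median log2 difference of -0.07 beside 0 over all tested genes. For Hoxb2, which acts in hindbrain patterning, there were 3, 3 and 3 peaks in PBS, against 2, 3 and 2 in DOX (log2 difference -0.32 ± 0.16, SE; limma adjusted p = 0.66). Without DOX replicate 2 its adjusted p became 0.00276 in limma, since each remaining group then had a single value.

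Counted again by the nearest Hox gene, the groups overlapped for the members with the most peaks. Hoxa3 had 11, 11 and 12 in both PBS and DOX. Hoxb3 counted 5, 6 and 9 in PBS, against 7, 6 and 6 in DOX, and Hoxc4 counted 6, 6 and 11 against 6, 6 and 6. In HoxD, Hoxd13 (2, 4 and 4 in PBS; 2, 3 and 3 in DOX) tied in total with Hoxd1 (2, 3 and 2 in PBS; 4, 3 and 4 in DOX). The Hoxd13 peaks all lay outside the gene, of which 0% was covered in every library. Some of them lay over Evx2 or the long noncoding RNA gene Gm31790. By the nearest protein-coding gene of any kind, Hoxd13 had 1 peak in every library. Hoxa6 was the one member whose numbers did not overlap between groups, with no assigned peak in any PBS library and 1 in each DOX library. Among the 8595 tested genes, to which Hoxa6 with its few peaks does not belong, 2.69% were higher in DOX without overlap and 2.21% lower.

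The Hoxa6 peak was one of 2 Hox regions of 124 that every DOX library listed and no PBS library did, beside 0.792% of all regions. There were 0 listed in PBS alone, beside 0.303% of all regions. The Hoxa6 region (chr6:52207611-52207962) lies within Hoxa6 and Hoxa3 and stood at percentiles of 9.87, 1.20 and 24.1 in DOX, at heights of 13.95, 12.6 and 19.8 times the background. The other, 1062 bp from Hoxc12 (chr15:102939521-102940196), stood at 7.49, 6.05 and 6.28, at 13.4 to 13.9 times the background. Both were weak, and the longer deposited lists of PBS replicates 1 and 2 hold a peak at each. That of PBS replicate 3, which was not shortened, holds neither. At these sites, listing in DOX alone thus depended on the length of the lists.

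The genes that act with or on Hox genes were open and not called. All 9 HOX cofactor genes of the Pbx, Meis and Pknox families, which bind DNA together with HOX proteins, and all 15 Polycomb genes had an open start in every library. So did the 3 retinoic acid receptor genes, whose products act on Hox enhancers, and 6 of 7 Trithorax and demethylase genes. The exception was Ash2l, a subunit of the histone H3 lysine 4 methyltransferase complexes, with 1 peak in each library but none at its start. Of the homeobox genes beside the clusters, Evx1 next to HoxA had no open start in any library and Evx2 next to HoxD had one in 1 library. Of the 26 genes of these lists with enough peaks for the fit, 0 passed an adjusted p of 0.05 in limma in either direction, and 2 had an unadjusted p under 0.05.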

How the data were processed

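Per the submitters' processing notes the build was mm10, and MACS2 2.2.7.1, Bowtie2 2.4.5, Picard 2.10.9, Trim Galore 0.6.6, DiffBind 3.16.0 and DESeq2 were among the tools, with no role stated. Peak-calling settings and any shift for the Tn5 cut were not stated. The authors deposited 1 peak list per library, with a score, a fold (ratio of pileup to background), −log10 p, −log10 q and the summit's position as another value per peak. All are the authors' values, not scaled between libraries. Background depth was solved from the deposited fold and −log10 p, and 100% of the pileups checked were then whole within 0.05. The highest pileups were left out of this check, which took in 97244 of 100642 peaks in DOX replicate 3.

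Lists held 65462 to 100642 peaks on chromosomes 1 to 19 and X, and the strongest 65462 by −log10 p were used. Overlapping peaks were merged into regions, with a percentile for the strongest peak of each library. Genes came from a RefSeq table (GRCm38.p6), which matched 38 of 38 members. Each summit within 50 kb of a protein-coding gene went to the nearest. Fits used limma 3.58.1 (trend, robust) in R 4.3.3, checked on simulated data. Single values were compared with exact permutation tests (scipy 1.17.1). Groups and replicate numbers came from the sample titles. Same-numbered libraries were not paired.

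Members, lists and tests were chosen with earlier results of these data known. Named with values were members called or without overlap in peak number, those with no open start, those with most peaks, the strongest region per cluster, the 5 largest rank differences each way, and regions listed after 1 treatment. The start ranks of other members, the region with the lowest adjusted p and Hoxb2 were added after their values were seen. Alternatives were full lists, the strongest 32731 peaks, peaks at least 20 times the background, no flank, other windows, filters, pseudocounts and scales, a replicate block, and leaving out each library. Centred log2 heights, starts by cluster strand and the strongest 32731 peaks for open starts were added after seeing the data.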

Additional observations from a re-analysis of the deposited data

How the results depend on the processing

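Peak numbers changed sign. DOX minus PBS was 5, 2.67 and 5.33 peaks in HoxB, HoxD and all clusters with full lists, and 2.33, 1 and 1.67 in HoxB, HoxC and all clusters among the strongest 32731 peaks. Leaving out 1 library gave -6.17 to -2.17 in HoxA, -3.67 to 2.33 in HoxB, -5.17 to 1.33 in HoxC, -2.5 to 1 in HoxD and -17.5 to 2.5 in all, the positive ends without PBS replicate 3. Covered length kept its sign apart from HoxD among the strongest 32731 (-0.246 kb). Shares of the covered length changed sign in HoxA among the strongest 32731 (0.00211) and at 20 times the background (0.000333). They also did so in HoxD with full lists (0.000112) and in all clusters among the strongest 32731 (0.00889). Without 1 library they ran from -0.00614 to 3.13e-06 in HoxA, -8.19e-05 to 0.00549 in HoxB, -0.00471 to 0.00101 in HoxC, -0.00225 to 0.00173 in HoxD and -0.00984 to 0.00609 in all (percent). The Hoxa2 region over Hotairm1 reversed with full lists (3.47), where the other named regions lower in DOX shrank to between -1.50 and -0.83. The Hoxd8 region moved to -4.86 without DOX replicate 1, and the Hoxc8 and second Hoxa9 regions to -5.05 and -9.10 without PBS replicate 3. The causes were not tested.

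Regions listed in DOX alone numbered 4 with full lists, 0 among the strongest 32731 and 2 to 5 without 1 library, and those in PBS alone 0 to 1. Over all regions the DOX share was 1.90%, 0.772% and 1.21% to 1.85%, against 0.792%. They were 5 without DOX replicate 2 and 4 without PBS replicate 2. Members with an open start in all 6 libraries numbered 12 among the strongest 32731, 31 within 2.5 kb and 27 with full lists, and those open in none 15, 5 and 4. Members called lower in peak number were 0 to 1 without 1 library, the 1 being Hoxb2 without DOX replicate 2. No shared Hox region was called in any alternative, the lowest adjusted p being 0.14 to 0.402 in limma without 1 library. The raised spread changed no call. Ranking by fold gave the same ranks, since fold and −log10 p both follow the pileup over 1 background per library. It therefore could not test the ranking.

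Correlations of same-numbered libraries were 0.131, -0.116 and 0.0491 in region percentiles, so the numbers were not taken as pairs. With the replicate block, 0 members and 0 Hox regions were called, and over all genes 24 were higher and 17 lower, against 50 and 45 without it. Absence from a list depends on depth, which was greater in DOX.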

Other observations

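Regions over long noncoding RNA genes of the clusters spanned most of the range of percentiles. Gm29905, over which the Hoxc6 region lies, stood at percentiles from 94.9 to 96.7, and Hoxaas3, over which the Hoxa3 region lies, at 91.8 to 95.8. The strongest shared region over Hotairm1, a transcript known from the anterior end of HoxA, stood at 74.8 to 78.6. Hotair, a transcript of HoxC between Hoxc11 and Hoxc12 that is known for its association with Polycomb, was overlapped by 1 region (chr15:102946139-102946547). It was listed in PBS replicate 2, PBS replicate 3 and DOX replicate 2, at 6.42, 6.81 and 3.65, and the full deposited lists of all 6 libraries hold a peak there. In HoxD, Hoxd3os1 stood at a median of 69.5 and Gm38462 at 59.2, and in HoxA 5730596B20Rik stood at 27.6. Haglr, beside Hoxd1, was overlapped by 3 regions, of which 0 were shared by all 6 libraries.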
